A study of Mus musculus with 6 samples.

Results

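The genes described here are the integrin chains, the laminin chains and the proteins that tie both to the cell surface and the cytoskeleton: the nidogens, perlecan, agrin, dystroglycan, the sarcoglycans, the talins, the kindlins, integrin-linked kinase and α-parvin. They were chosen by symbol among the protein-coding genes, with earlier results of these data known, and 48 of the 55487 annotated genes met the rule. Aortic RNA was sequenced from 3 control mice and 3 mice with an inducible smooth muscle-specific knockout of Prdm16 (iSM KO), all male, to ask which genes change in the vessel when this transcription factor is removed. The iSM KO mice were homozygous for a floxed exon 9 of Prdm16 and the controls had the wild-type allele. Both groups were on a C57BL/6 background and carried the Y-linked Myh11-CreERT2 transgene, in which the Myh11 promoter confines the recombinase to smooth muscle cells, so that cells of other types in the same aorta keep Prdm16. Both groups received tamoxifen from 8 weeks of age, at 1 mg per day for 10 injections, followed by 2 weeks of washout and a further 60 days. The adventitia was removed before RNA extraction, and no injury or diet was applied.

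An integrin is a heterodimer of an α and a β chain that binds matrix proteins outside the cell and, through talin, kindlin and the complex of integrin-linked kinase with parvin, the actin cytoskeleton inside it. A laminin is a trimer of an α, a β and a γ chain that polymerises into the basement membrane around each smooth muscle cell, where nidogens join it to collagen IV and where perlecan and agrin carry heparan sulfate chains. Dystroglycan is the other main laminin receptor, and the sarcoglycans hold it and dystrophin in place in the membrane of muscle cells.

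Counts per library summed to between 24911609 and 40460467, with the smallest total in control 3, and protein-coding genes took 59.0% to 67.6% of them. Levels are given as CPM, the count relative to the library total after scaling by the TMM method, and as CPM per kilobase of exon where genes are compared with each other. Differences were tested across 16565 expressed genes with edgeR's quasi-likelihood test, and the edgeR FDR is its p-value after Benjamini-Hochberg adjustment over all of them. Prdm16 itself was at 183, 223 and 178.5 CPM in the controls and 93.8, 113 and 79.8 CPM in the iSM KO libraries, a log2 fold change of -1.03 (SE 0.137, edgeR FDR = 0.00265), so that the labels and the targeted gene matched in all 6 libraries. The smooth muscle markers Myh11, Acta2 and Tagln were abundant in every library, and the summed level of 8 such markers was 22500 to 27520 CPM in the controls and 24270 to 26740 CPM in the iSM KO libraries. Of these 8 markers 2 rose, Des (log2 fold change 1.24, edgeR FDR = 0.00381) and Myocd (0.65, edgeR FDR = 0.0109), and none fell.

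The upstream sequences of Sgca, Lama2 and Itga5 are shown because these genes rose in the iSM KO aortas whichever library was left out and have an entry in the RefSeq promoter table, which held 31 of the 48 genes. Each run is the 250 bases before a transcription start in that table, 5′ to 3′ on the strand of the gene, from GRCm38.p6. The windows are chr11:94976328-94976577 for Sgca, chr10:27616943-27617192 for Lama2 and chr15:103366792-103367041 for Itga5, all on the minus strand and none within an annotated exon. Those of Sgca and Itga5 lie outside the annotated gene. That of Lama2 lies inside it, before an internal start, as the annotated gene begins at 27619758. Capitals mark E-boxes (CANNTG, the site class of basic helix-loop-helix factors) and the CArG box, which serum response factor binds.
Sgca: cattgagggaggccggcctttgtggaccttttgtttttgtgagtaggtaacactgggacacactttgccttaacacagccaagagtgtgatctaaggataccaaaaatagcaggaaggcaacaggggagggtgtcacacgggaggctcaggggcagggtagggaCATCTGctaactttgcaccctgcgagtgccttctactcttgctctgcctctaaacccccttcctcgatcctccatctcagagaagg
Lama2: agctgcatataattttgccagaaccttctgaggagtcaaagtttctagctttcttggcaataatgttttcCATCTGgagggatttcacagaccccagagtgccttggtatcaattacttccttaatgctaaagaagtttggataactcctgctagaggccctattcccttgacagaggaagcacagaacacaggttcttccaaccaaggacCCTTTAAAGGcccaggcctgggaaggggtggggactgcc
Itga5: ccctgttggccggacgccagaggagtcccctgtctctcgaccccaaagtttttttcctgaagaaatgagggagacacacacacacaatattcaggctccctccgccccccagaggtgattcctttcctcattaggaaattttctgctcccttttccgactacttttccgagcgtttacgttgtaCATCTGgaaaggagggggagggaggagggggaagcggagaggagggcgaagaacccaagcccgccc
Each of the 3 windows held 1 E-box, and 66.2% of 32851 RefSeq windows of this length held at least 1. The Lama2 window alone among the 3 also held a CArG box, from base -39 to base -30, and 1.47% of all windows of this length held it. Among the other members, windows of Fermt2, which did not pass the test described below, and of Itgb6, which was not tested, also held a CArG box. The other motifs searched on both strands were the MCAT element (CATTCC), the SMAD box (CAGAC), the GC box (GGGCGG) and the TATA box (TATAAA), present in 14.7%, 49.6%, 35.7% and 13.6% of all windows of 300 bases. Within the sequences printed here, Itga5 held 2 GC boxes, Lama2 held 1 SMAD box and Sgca held no match to these 4. These matches describe letters only.

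Of the 48 genes, 42 had counts that allowed a test. In the iSM KO aortas 9 of them rose, 2 fell and 31 did not pass an edgeR FDR of 0.05. The genes that rose were Sgca, Itga5, Nid2, Lama2, Itga1, Itga7, Agrn, Lamc3 and Lamc1, and those that fell were Itgb8 and Lamb1. The share of tested members that rose was 21.4%, beside 4.26% of all tested genes, and the share that fell was 4.76%, beside 3.30%. In either direction 7.56% of all tested genes passed. Among genes with a control mean of 10 CPM or more, 8 of 32 members rose and 1 fell, where 5.29% and 3.93% of 8211 genes did. The changes were small for most members. Sgca alone passed a fold change of 2 together with the FDR, a class that held 1.40% of all tested genes on the higher and 1.38% on the lower side. The log2 fold change was above 0 for 27 members and below 0 for 15, with a median of 0.15, and it was above 0 for 47.6% of all tested genes, whose median was -0.01. All 3 iSM KO libraries lay above all 3 controls for 18 members, where 15.0% of all tested genes did, and below them for 5, where 13.0% did, 27.9% in all. Sgca, Itga5, Nid2 and Lama2 kept an FDR under 0.05 in each of the 6 fits that left out 1 library, and the other 7 kept it in 1 to 4 of them.

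**Figure D1:**
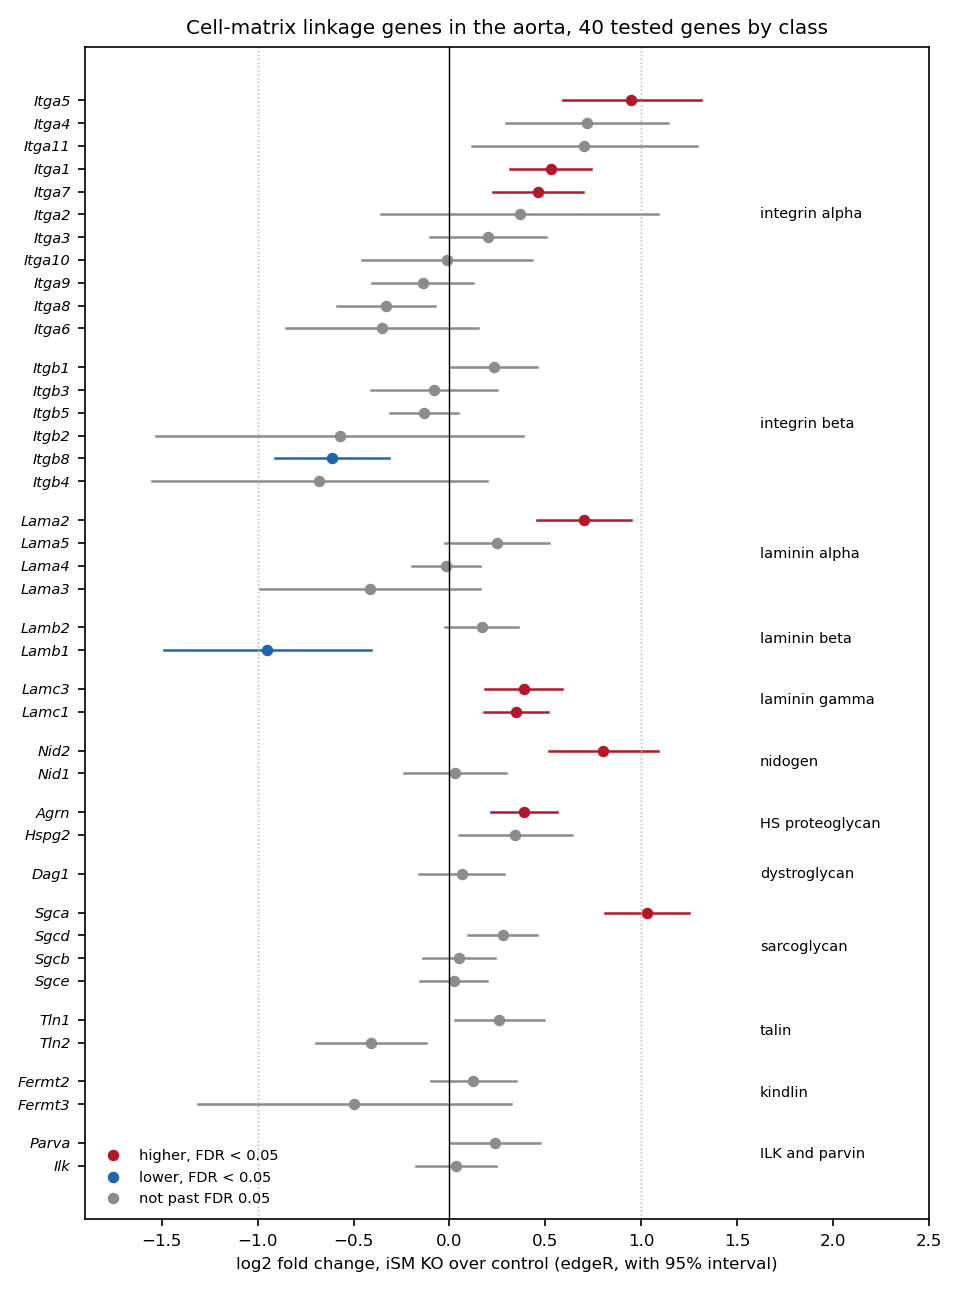
Log2 fold change of iSM KO over control (x axis) for 40 of the 42 tested genes, grouped by class, with the 95% interval of edgeR's fit as bars; red marks genes that rose and blue genes that fell at an FDR under 0.05, grey those that did not pass. The interval of Sgca is centred on 1.03 and that of Lamb1 on -0.95, and the widest intervals are those of Itgb2 and Itgb4.

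Among the integrin α chains, 3 of 11 rose and none fell. Itga5 (ENSMUSG00000000555, chromosome 15, 103344286 to 103366763, minus strand, GRCm38) encodes the α chain of the classical fibronectin receptor. It was at 309, 424 and 295 CPM in controls 1 to 3 and at 694, 736 and 556 CPM in iSM KO mice 1 to 3. The lowest iSM KO library lay above the highest control, which was control 2. The mean rose from 343 ± 70.9 to 662 ± 93.9 CPM (SD, n = 3 each), a log2 fold change of 0.95 (SE 0.159, edgeR FDR = 0.00797).

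Itga1 (ENSMUSG00000042284, chromosome 13, 114953096 to 115101964, minus strand) encodes a collagen receptor chain that also binds laminin. It was at 216, 221 and 217 CPM in the controls and at 337, 328.5 and 276 CPM in the iSM KO libraries. The controls were nearly level, whereas iSM KO 3 stood lower than the other iSM KO libraries and still above every control. Its log2 fold change was 0.53 (SE 0.093, edgeR FDR = 0.0103). Without iSM KO 1 the FDR was 0.0549 and without iSM KO 2 it was 0.0692. A second gene, Gm49395, shares 3.68% of the exon bases of Itga1 and was at a mean of 3 CPM or less in both groups.

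Itga7 (ENSMUSG00000025348, chromosome 10, 128933818 to 128958282, plus strand) encodes the laminin receptor chain typical of muscle. Its levels were 148, 183 and 154.5 CPM in the controls and 239, 228 and 203 CPM in the iSM KO libraries, with no overlap and with control 2 the nearest to the iSM KO range. The log2 fold change was 0.46 (SE 0.104, edgeR FDR = 0.0299), and the FDR was 0.0942, 0.0912, 0.123 and 0.134 without control 1, control 3, iSM KO 1 and iSM KO 2. The ratio of Itga7 to Itga1 per kilobase overlapped between the groups, at 1.58, 1.91 and 1.64 in the controls and 1.63, 1.598 and 1.69 in the iSM KO libraries.

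Itga8 was the most abundant member per kilobase in the controls. It encodes the α chain of a receptor for nephronectin and fibronectin that vascular smooth muscle makes in quantity. Its levels were 2537, 2334 and 2052 CPM in the controls and 1896, 1888 and 1716 CPM in the iSM KO libraries. The groups did not overlap, but the log2 fold change of -0.33 did not pass (SE 0.112, edgeR FDR = 0.122), and DESeq2 gave an adjusted p of 0.025. Itga8 passed in 1 of the 9 other settings with all libraries, DESeq2, and in 0 of the 6 fits without 1 library (FDR up to 0.295). As Itga5 rose, the per-kilobase ratio of Itga8 to Itga5 was 5.49, 3.68 and 4.66 in the controls and 1.83, 1.72 and 2.06 in the iSM KO libraries. Itga5 stood above Itga9, a chain that binds tenascin and osteopontin, in 0 of 3 control and 3 of 3 iSM KO libraries on the same per-kilobase scale.

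The other 7 α chains did not pass. Itga4, a receptor chain for fibronectin and VCAM1, came nearest, at 9.46, 5.75 and 7.04 CPM in the controls and 10.5, 13.8 and 12.3 CPM in the iSM KO libraries. These did not overlap, and the log2 fold change was 0.72 (SE 0.187, edgeR FDR = 0.0517). Itga4 passed under 4 of the 9 other settings with all libraries, with an adjusted p of 0.0053 in DESeq2, 0.0463 in limma-voom, 0.0467 with protein-coding scaling and 0.00436 with no filter on low counts. The FDR of Itga4 was 0.0156 without control 1, and it passed in no other of the 6 fits without 1 library (FDR up to 0.206). Cerkl on the opposite strand shares 8.04% of the exon bases of Itga4. The collagen receptor chains Itga11, Itga2 and Itga10 had log2 fold changes of 0.70, 0.37 and -0.01, with control means of 2.34, 1.07 and 12.8 CPM. Those of Itga3 and Itga6, which bind laminin, were 0.20 and -0.35, and that of Itga9 was -0.14. The FDR of Itga3 was 0.419 with all libraries and 0.0248 without control 2, its highest library. Itga3 passed in no other of the 6 fits without 1 library (FDR up to 0.717) and in 0 of the 9 other settings.

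Among the β chains, none of the 6 tested rose and 1 fell. Itgb1, the common partner of most α chains measured here, was at 1229, 1127 and 1336 CPM in the controls and 1483, 1438 and 1416 CPM in the iSM KO libraries. Every iSM KO library lay above every control, at a log2 fold change of 0.23 that did not pass (SE 0.0985, edgeR FDR = 0.208). The vitronectin receptor chain Itgb5, which pairs with αv, went the other way, with all iSM KO libraries (361, 352.5 and 337 CPM) under all controls (388, 367.5 and 396.5 CPM) at a log2 fold change of -0.13 (SE 0.0789, edgeR FDR = 0.364). The ratio of Itgb5 to Itgb1 per kilobase was therefore 0.341 to 0.375 in the controls and 0.273 to 0.282 in the iSM KO libraries.

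Itgb8 (ENSMUSG00000025321, chromosome 12, 119158022 to 119238802, minus strand) encodes the β chain that, with αv, releases active TGF-β from its latent complex. It was at 23.8, 17.4 and 24.0 CPM in the controls and at 14.3, 13.7 and 14.6 CPM in the iSM KO libraries. The iSM KO libraries were tightly grouped and all under control 2, which was well below the other controls. The mean fell from 21.7 ± 3.76 to 14.2 ± 0.424 CPM (SD, n = 3 each), a log2 fold change of -0.61 (SE 0.131, edgeR FDR = 0.0243). Leaving out control 1, control 3, iSM KO 1, iSM KO 2 or iSM KO 3 gave an FDR of 0.0681, 0.0733, 0.0766, 0.106 or 0.0514. Its partner chain Itgav was at 173, 152 and 165 CPM in the controls and 188, 192 and 185 CPM in the iSM KO libraries, a log2 fold change of 0.20 (SE 0.0772, edgeR FDR = 0.161).

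The remaining tested β chains overlapped between the groups. Itgb3, another partner of αv, had a log2 fold change of -0.08. Itgb4, which pairs with α6 in hemidesmosomes, and Itgb2, the chain of the leukocyte integrins, had log2 fold changes of -0.68 (SE 0.386) and -0.57 (SE 0.423), the widest standard errors among the tested members. The epithelial chain Itgb6 and the lymphocyte chain Itgb7 were not tested, at no more than 0.0419 and 0.465 CPM in any library.

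**Figure D2:**
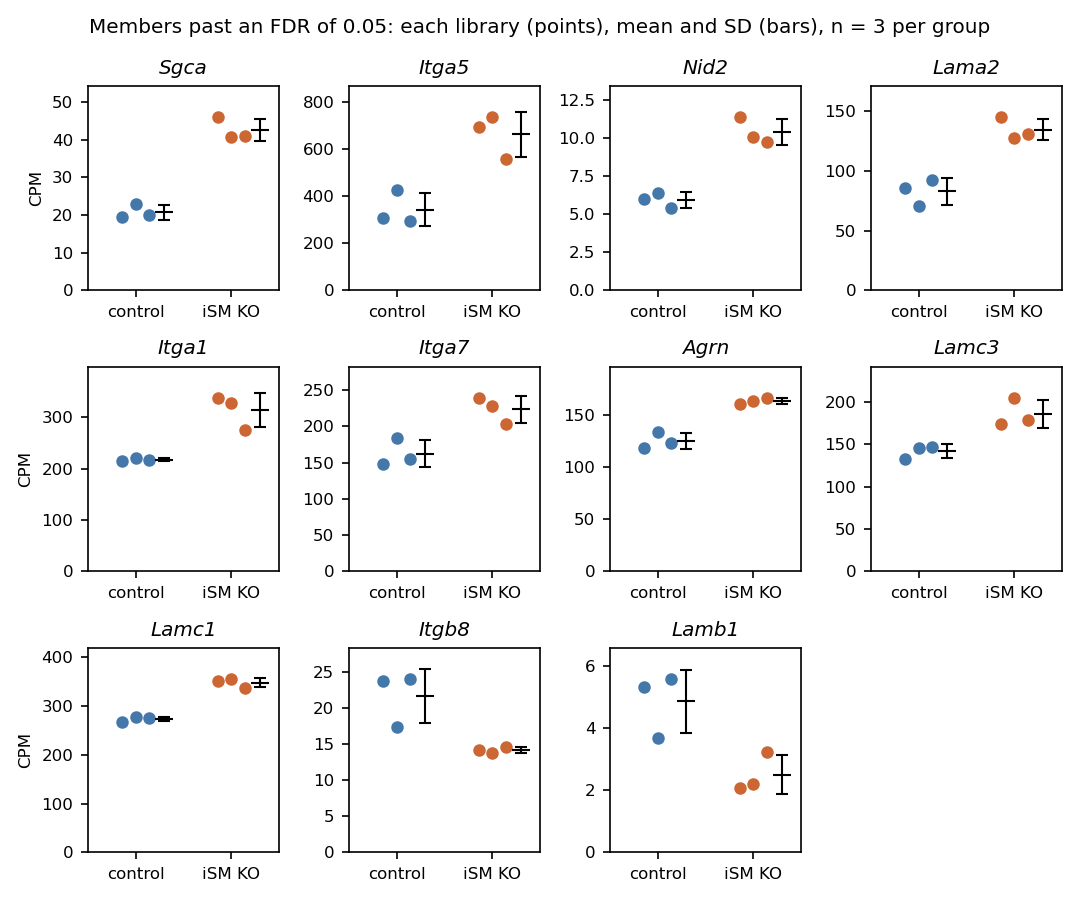
CPM (y axis, from 0) of the 11 genes that passed, 1 panel per gene, with each library as a point in blue for control and orange for iSM KO, and the mean with SD as a bar (n = 3 per group). The iSM KO points lie wholly above the controls in 9 panels and wholly below them in the panels of Itgb8 and Lamb1.

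Among the laminin chains, 1 of 4 tested α chains and 2 of 3 γ chains rose, and 1 of 2 tested β chains fell. Lama2 (ENSMUSG00000019899, chromosome 10, 26980036 to 27619758, minus strand) encodes the α chain of the laminin of muscle and nerve basement membranes, and its loss causes a congenital muscular dystrophy. The window with the CArG box printed above precedes a start inside the annotated gene. It was at 85.2, 70.3 and 92.3 CPM in the controls and at 145, 127.5 and 131 CPM in the iSM KO libraries. The lowest iSM KO library, iSM KO 2, lay well above the highest control. The mean rose from 82.6 ± 11.2 to 134 ± 9.09 CPM (SD, n = 3 each), a log2 fold change of 0.70 (SE 0.108, edgeR FDR = 0.00558). Fibroblasts also make Lama2, and of 10 fibroblast markers 1 rose (Col14a1) and 2 fell (Scara5 and Clec3b), with a summed level of 299 to 550 CPM in the controls and 583 to 625 CPM in the iSM KO libraries. Col14a1 made up 77.2 to 116 and 373 to 422 CPM of it, and without Col14a1 the sum was 434, 222 and 315 CPM in controls 1 to 3 and 161, 179 and 252 CPM in iSM KO mice 1 to 3. None of these 10 markers was near 0, 9 of the 10 had a log2 fold change below 0, and their part in the difference in Lama2 was not tested. In bulk tissue, a change in the number of cells of a type and a change in RNA per cell cannot be told apart.

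The chief α chain by level was Lama5, a chain of mature vascular basement membranes, at 347, 469 and 364 CPM in the controls and 471, 484 and 445 CPM in the iSM KO libraries. Control 2 overlapped the iSM KO range, and the log2 fold change was 0.25 (SE 0.12, edgeR FDR = 0.27). Without control 2 it was 0.40, with an FDR of 0.033. Lama5 passed in no other of the 6 fits without 1 library (FDR up to 0.538) and in 0 of the 9 other settings. Lama4, the other α chain typical of vessels, had a log2 fold change of -0.02 (SE 0.0772, edgeR FDR = 0.918). Per kilobase, Lama2 stood at 0.104 to 0.177 of the level of Lama5 in the controls and 0.184 to 0.214 in the iSM KO libraries. Lama3, an α chain of epithelial laminin, had a log2 fold change of -0.42 (SE 0.254, edgeR FDR = 0.373), and Lama1, the embryonic chain, was under the test's count minimum with 0 counts in iSM KO 1 and iSM KO 2.

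Lamb1 and Lamb2 encode alternative β chains, of which Lamb2 is that of mature muscle basement membranes. Lamb2 was at 998.5, 1053 and 1021 CPM in the controls and 1144, 1132 and 1174 CPM in the iSM KO libraries. These did not overlap, but the log2 fold change of 0.17 did not pass (SE 0.0851, edgeR FDR = 0.288). Lamb1 (ENSMUSG00000002900, chromosome 12, 31265234 to 31329644, plus strand) was over 100 times less abundant per kilobase. It was at 5.31, 3.69 and 5.58 CPM in the controls and 2.09, 2.21 and 3.23 CPM in the iSM KO libraries, from 77 to 178 counts per library. The groups did not overlap, although control 2 and iSM KO 3 came close. Lamb3, the β chain of epithelial laminin, was not tested, with 2 to 8 counts per library. The mean of Lamb1 fell from 4.86 ± 1.02 to 2.51 ± 0.629 CPM (SD, n = 3 each), a log2 fold change of -0.95 (SE 0.238, edgeR FDR = 0.0443). Its FDR was 0.12, 0.131, 0.153 and 0.174 without control 1, control 3, iSM KO 1 and iSM KO 2, and limma-voom did not call it. Beside it, the summed level of 11 epithelial and mesothelial markers was 10.9 to 12.4 CPM in the controls and 2.36, 3.53 and 10.1 CPM in iSM KO mice 1 to 3, in the order of Lamb1 among the iSM KO libraries and in the reverse order of Lamb1 among the controls. Most of the control sum was Krt18, the 1 marker of the list that was tested, which fell at an edgeR FDR under 0.05 (log2 fold change -1.79). Krt5, Krt14 and Cdh1 were near 0, and the part of these cells in the difference in Lamb1 was not tested.

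The γ chains that rose were Lamc1, the common γ chain of basement membrane laminins, and Lamc3, a chain of lower abundance. Lamc1 (ENSMUSG00000026478, chromosome 1, 153218922 to 153332786, minus strand) was at 268, 276 and 275 CPM in the controls and 350, 355 and 337 CPM in the iSM KO libraries. The spread within each group was much smaller than the gap between them, and the log2 fold change was 0.35 (SE 0.0741, edgeR FDR = 0.0244). Its FDR was 0.0533, 0.112, 0.145 and 0.0554 without control 1, iSM KO 1, iSM KO 2 and iSM KO 3. Lamc3 (ENSMUSG00000026840, chromosome 2, 31887291 to 31946539, plus strand) was at 133, 146 and 147 CPM in the controls and 173.5, 204 and 179 CPM in the iSM KO libraries. Its groups did not overlap, with iSM KO 2 the highest library. The log2 fold change of Lamc3 was 0.39 (SE 0.0887, edgeR FDR = 0.0323), and only the fit without control 2 kept it under 0.05, with FDRs of 0.0559 to 0.169 without any other library.

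Of the nidogens, Nid2 rose and Nid1 did not pass. Nid2 (ENSMUSG00000021806, chromosome 14, 19751265 to 19811787, plus strand) was at 6, 6.43 and 5.41 CPM in the controls and 11.4, 10.1 and 9.72 CPM in the iSM KO libraries, from 129 to 464 counts per library. The iSM KO libraries stood clear of the controls, and iSM KO 1 was the highest. The mean rose from 5.95 ± 0.511 to 10.4 ± 0.875 CPM (SD, n = 3 each), a log2 fold change of 0.80 (SE 0.125, edgeR FDR = 0.0058). Rtraf, on the opposite strand, shares 8.45% of the exon bases of Nid2 and had a log2 fold change of 0.03. Nid1, the more abundant nidogen, was at 58.3, 50.4 and 44.5 CPM in the controls and 45.6, 56.8 and 54.0 CPM in the iSM KO libraries, a log2 fold change of 0.03 (SE 0.118, edgeR FDR = 0.917). The per-kilobase ratio of Nid2 to Nid1 was 0.138, 0.171 and 0.163 in the controls and 0.335, 0.238 and 0.242 in the iSM KO libraries, with no overlap.

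The heparan sulfate proteoglycans were Hspg2 (perlecan) and Agrn (agrin), which binds both laminin and dystroglycan. Agrn (ENSMUSG00000041936, chromosome 4, 156165290 to 156197488, minus strand) was at 118, 133 and 123.5 CPM in the controls and 161, 164 and 166 CPM in the iSM KO libraries. Its iSM KO libraries were within 6 CPM of each other and above every control. Agrn rose by a log2 fold change of 0.39 (SE 0.0759, edgeR FDR = 0.016), and its FDR was 0.0657, 0.0923 and 0.0541 without iSM KO 1, iSM KO 2 and iSM KO 3. Hspg2, the third most abundant member per kilobase, was at 2455, 3231 and 2495 CPM in the controls and 3470, 3533 and 3372 CPM in the iSM KO libraries. The groups did not overlap, with control 2 far above the other controls. The log2 fold change of Hspg2 was 0.34 (SE 0.13, edgeR FDR = 0.163), DESeq2 gave an adjusted p of 0.0398, and without control 2 the log2 fold change was 0.48 with an FDR of 0.0306. Hspg2 passed in no other of the 6 fits without 1 library (FDR up to 0.397) and in 1 of the 9 other settings, DESeq2.

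**Figure D3:**
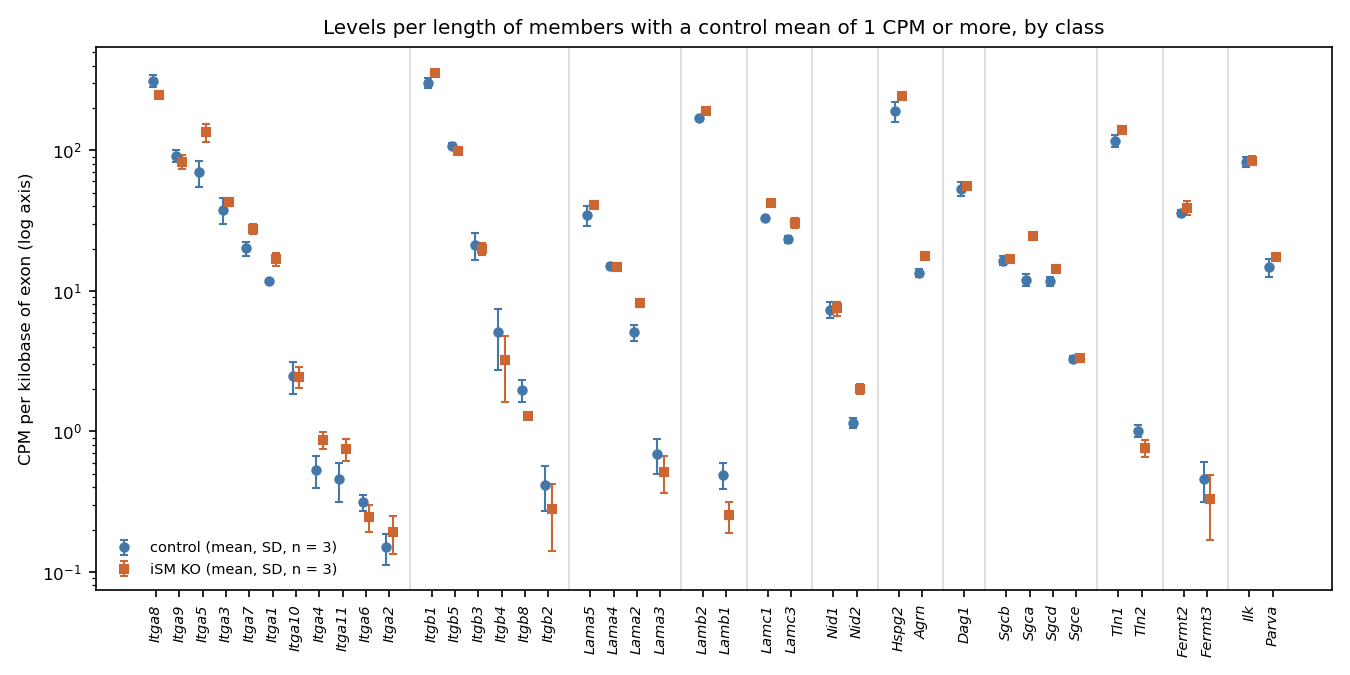
Mean level in CPM per kilobase of exon (y axis, log scale) with SD (n = 3) of members with a control mean of 1 CPM or more, by class and in order of the control level, in blue for control and orange for iSM KO. Itga8 and Itgb1 have the highest means in both groups, although Hspg2 is within the spread of Itga8 in the iSM KO group. Itga5 moves above Itga9 in the iSM KO group.

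Levels per kilobase set the classes in proportion. Itga8 and Itgb1 led the controls, at 313 ± 33.0 and 302 ± 25.7 CPM per kilobase (SD, n = 3), and did not differ beyond their spread. Hspg2 and Lamb2 followed at 191 ± 30.5 and 168 ± 4.48, again within the spread, then Tln1 and Itgb5 at 117 ± 11.3 and 108 ± 4.19. Next came Itga9, Ilk and Itga5 at 91.2 ± 9.06, 82.5 ± 6.90 and 69.5 ± 14.4, each within the spread of its neighbour. Summed per kilobase, the integrin α chains overlapped between the groups (547 ± 46.3 in controls, 558 ± 47.0 in iSM KO). The integrin β chains (438 ± 23.9 and 478 ± 11.3), laminin β chains (169 ± 4.403 and 189 ± 3.65), laminin γ chains (56.5 ± 1.82 and 72.6 ± 3.48), proteoglycans (204 ± 31.3 and 259 ± 5.53), sarcoglycans (68.6 ± 0.526 and 88.5 ± 4.598) and talins (118 ± 11.3 and 140.5 ± 5.97) were each higher in all iSM KO libraries than in all controls. Single members that did not pass made up most of some of the control sums. These were Lamb2 (168 of 169), Tln1 (117 of 118), Hspg2 (191 of 204) and Itgb1 (302 of 438). Of the 6 tested β chains of integrins, 5 had a log2 fold change below 0, as did Lamb1 and Tln2. The class sums are given without a test.

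On the dystroglycan side, Sgca rose and the other 4 tested sarcoglycans and dystroglycan did not pass. Sgca (ENSMUSG00000001508, chromosome 11, 94962791 to 94976327, minus strand) encodes α-sarcoglycan, the chain typical of striated muscle, whose loss causes a limb-girdle muscular dystrophy. It was at 19.4, 23.1 and 20.0 CPM in the controls and at 46.0, 40.7 and 41.0 CPM in the iSM KO libraries. Every iSM KO library was well above every control, and the spread within each group was small. The mean rose from 20.8 ± 1.99 to 42.6 ± 2.98 CPM (SD, n = 3 each), a log2 fold change of 1.03 (SE 0.0973, edgeR FDR = 0.000474), the smallest FDR among the members. Its upstream window, printed above, held 1 E-box and no CArG box, as did that of Itga5. Itga3, another member, 68.1 kb away on the same chromosome, did not pass.

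Since Sgca is best known from striated muscle, markers of those cells are given beside it. Of 10 skeletal muscle markers 3 were tested and none passed, with a summed level of 4.03 to 4.74 CPM in the controls and 3.47 to 3.66 CPM in the iSM KO libraries, and Myog was at 0 in every library. Of 11 cardiomyocyte markers 7 were tested, 3 rose (Tnnt2, Ryr2 and Mybpc3) and none fell. Their summed level was 138 to 159 CPM in the controls and 899 to 916 CPM in the iSM KO libraries, of which Tnnt2 made up 702 to 744 CPM. Of the 7 tested, 4 had all iSM KO libraries above all controls and 1 had all below, where 15.0% and 13.0% of all tested genes did. From the same list, Myl2, Myl3, Myl7 and Nppa were under 0.5 CPM in every library, and Myh6 was at 0.419 to 1.79 CPM in the controls and 0.368 to 0.794 CPM in the iSM KO libraries. The part of such cells in the difference in Sgca was not tested.

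The sarcoglycan that takes the place of Sgca in many smooth muscles, Sgce, was at 35.4, 32.6 and 36.0 CPM in the controls and 34.9, 36.4 and 34.1 CPM in the iSM KO libraries (log2 fold change 0.02, SE 0.0774). In CPM, the mean of Sgca was below that of Sgce in the controls (20.8 and 34.7) and above it in the iSM KO group (42.6 and 35.2). The exon length, merged over all annotated transcripts, was 1.735 kb for Sgca and 10.61 kb for Sgce. Per kilobase of it, Sgca was at 3.34, 4.33 and 3.39 times the level of Sgce in the controls. In the iSM KO libraries it was at 8.06, 6.83 and 7.35 times. Which of both was the more abundant in the controls thus depended on the division by length. Sgcd, the δ chain, was at 93.2, 92.5 and 105 CPM in the controls and 116, 122 and 115 CPM in the iSM KO libraries. Every iSM KO library of Sgcd lay above every control, at a log2 fold change of 0.28 (SE 0.0796, edgeR FDR = 0.0711), and DESeq2 gave an adjusted p of 0.0293. Sgcd passed in 1 of the 9 other settings, DESeq2, and in 1 of the 6 fits without 1 library (FDR up to 0.289). Sgcb overlapped between the groups (0.05, SE 0.0826), as did dystroglycan, Dag1, at 343, 373 and 296 CPM in the controls and 362, 351 and 344 CPM in the iSM KO libraries (0.06, SE 0.0982). Sgcz had no count in any library, where 3 counts would correspond to 0.0736 to 0.126 CPM.

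**Figure D4:**
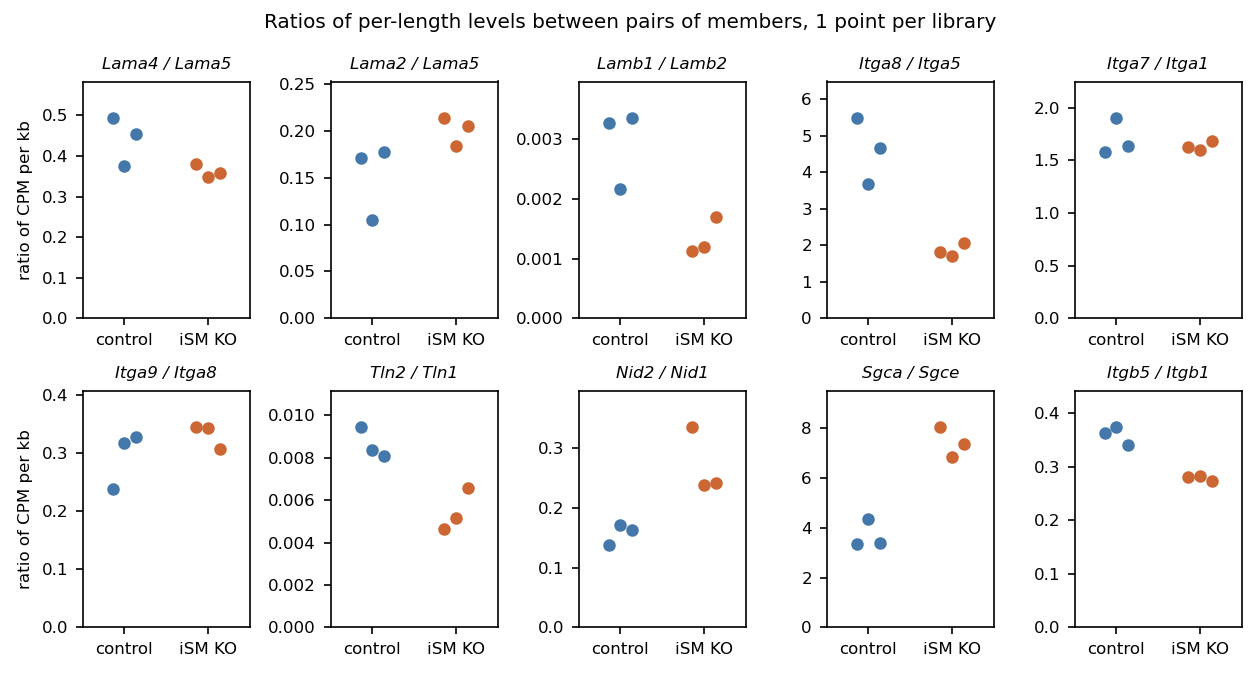
Ratio of the levels per kilobase of exon (y axes, from 0) for 10 pairs of members, 1 point per library, in blue for control and orange for iSM KO. The groups do not overlap for Lama2/Lama5, Lamb1/Lamb2, Itga8/Itga5, Tln2/Tln1, Nid2/Nid1, Sgca/Sgce and Itgb5/Itgb1, and overlap for Lama4/Lama5, Itga7/Itga1 and Itga9/Itga8.

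On the inner side of the integrins, none of the talin and kindlin genes, Ilk and Parva passed. Tln1, the widely expressed talin that couples integrins to actin, was at 1073, 1271 and 1087 CPM in the controls and 1408, 1399 and 1301 CPM in the iSM KO libraries. Control 2 came near the iSM KO range without reaching it, and the log2 fold change was 0.26 (SE 0.103, edgeR FDR = 0.179). Tln2, the minor talin here, moved the other way, at 19.0, 19.9 and 16.4 CPM in the controls and 12.2, 13.5 and 16.0 CPM in the iSM KO libraries. The groups of Tln2 did not overlap, by a narrow margin, and its log2 fold change of -0.41 did not pass (SE 0.126, edgeR FDR = 0.0911). Its FDR was 0.0462 without iSM KO 3. Tln2 passed in no other of the 6 fits without 1 library (FDR up to 0.273) and in 0 of the 9 other settings. The ratio of Tln2 to Tln1 per kilobase was 0.00807 to 0.00946 in the controls and 0.00463 to 0.00658 in the iSM KO libraries.

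The kindlins activate integrins together with talin. Fermt2, the kindlin of muscle and connective tissue, was at 189, 194 and 175 CPM in the controls and 214, 217.5 and 177 CPM in the iSM KO libraries, which overlapped (log2 fold change 0.12, SE 0.0978). Fermt3, the kindlin of blood cells, was at 2.18, 3.62 and 2.18 CPM in the controls and 1.67, 1.12 and 2.90 CPM in the iSM KO libraries, also with overlap (-0.50, SE 0.362), and the epithelial Fermt1 had at most 1 count in a library. Parva, which binds integrin-linked kinase and actin, was at 169.6, 150 and 128 CPM in the controls and 174.5, 178 and 175 CPM in the iSM KO libraries (0.24, SE 0.104, edgeR FDR = 0.222). Ilk was at 229, 244 and 206 CPM in the controls and 244, 238 and 213 CPM in the iSM KO libraries (0.03, SE 0.0927). Exons of Taf10 on the opposite strand cover 76.8% of the exon bases of Ilk and the gene Gm6263 is a near-identical copy, so that its counts are uncertain.

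Members typical of other cell types were set beside markers of those cells. The summed level of 10 endothelial markers was 967, 1140 and 588 CPM in controls 1 to 3 and 324, 533 and 872 CPM in iSM KO mice 1 to 3, which overlapped. None of these markers passed, their median log2 fold change was -0.66, and none of the 10 was at 0. Itga6 had the same order of the 6 libraries as this sum. Itgb4 was at 31.3, 54.0 and 21.7 CPM in the controls and 12.4, 20.5 and 34.3 CPM in the iSM KO libraries, and Lama3 at 6.09, 9.73 and 6.29 and at 3.90, 5.59 and 7.17 CPM. For both, control 2 was the highest and iSM KO 1 the lowest library, as for the endothelial sum, but the libraries between them were in another order. The summed level of 12 leukocyte markers was 30.4 to 35.0 CPM in the controls and 13.5, 13.4 and 35.7 CPM in the iSM KO libraries, again with none of the 8 tested passing, and the lymphocyte markers Cd3d, Cd3e and Cd79a were near 0. Itgb2 and Fermt3 were lowest in iSM KO 2 and next lowest in iSM KO 1, the libraries with nearly equal lowest sums, but both were highest in control 2 where the sum was highest in iSM KO 3. Of 9 tested adipocyte markers 5 fell and 1 rose, with a median log2 fold change of -2.8. The summed level of this list was 131 to 233 CPM in the controls and 112 to 121 CPM in the iSM KO libraries. Acsl1, which did not pass (log2 fold change -0.15), made up a mean of 104.3 and 94.13 CPM of these sums. The mean of Fabp4 fell from 42.3 to 6.54 CPM, and that of Pparg, the marker that rose, went from 3.86 to 8.8 CPM. Of 7 tested Schwann cell markers none passed (24.7 to 27.4 and 27.7 to 30.5 CPM). The part of these cells in the values of Itga6, Itgb4, Lama3, Itgb2 and Fermt3 was not tested.

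**Figure D5:**
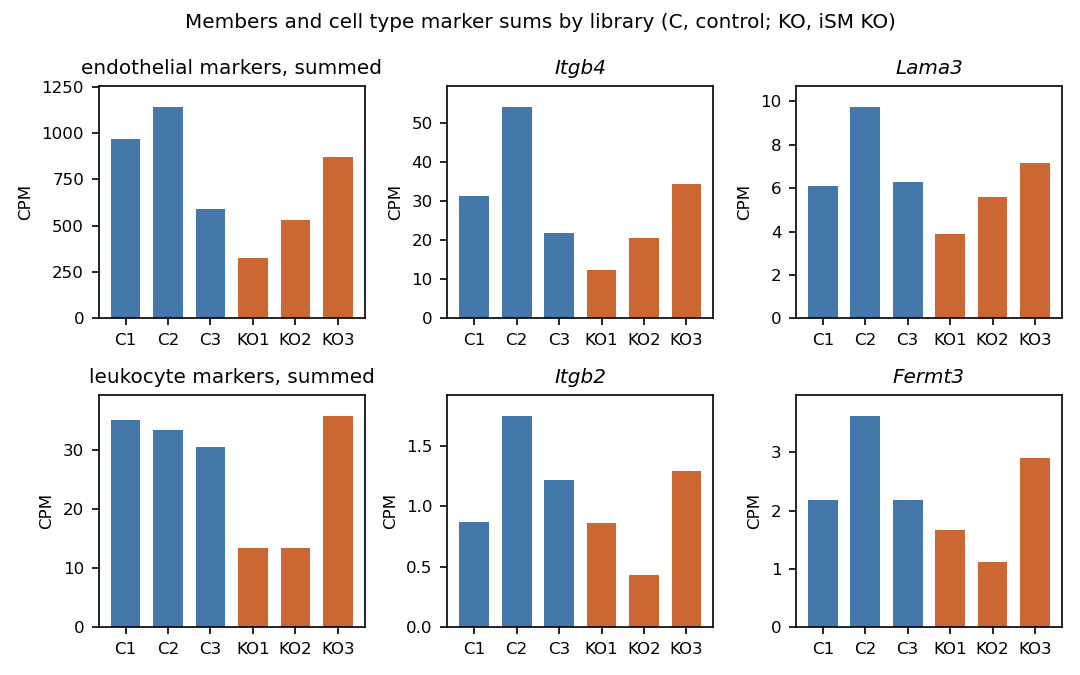
CPM by library (bars from 0, blue for controls C1 to C3 and orange for iSM KO mice KO1 to KO3) of the summed endothelial and leukocyte markers and of 4 members. Itgb4 and Lama3 are highest in C2 and lowest in KO1, as the endothelial sum is, and Itgb2 and Fermt3 are lowest in KO2 and highest in C2, where the leukocyte sum is highest in KO3.

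Other genes of the same structures were read from the same fit, in which 4.26% of all tested genes rose and 3.30% fell. Their lists were chosen with earlier results of these data known. Of 18 genes of the dystrophin complex and of dystroglycan glycosylation, all tested, 3 rose and none fell. These were Sntb1, a syntrophin, Dtna, the α-dystrobrevin, and Utrn, the dystrophin homologue utrophin. Dtna went from 103 ± 2.96 to 175 ± 28.3 CPM (SD, n = 3 each; log2 fold change 0.76, SE 0.116, edgeR FDR = 0.00522), Sntb1 from 62.5 ± 2.86 to 87.9 ± 3.91 CPM (0.49, edgeR FDR = 0.00513) and Utrn from 873 ± 29.6 to 1228 ± 92.0 CPM (0.49, edgeR FDR = 0.0154). Utrn did not pass without iSM KO 1 or iSM KO 2, with an FDR of up to 0.102. Dystrophin itself, Dmd, had a log2 fold change of 0.11 (SE 0.0922). The median over the 18 genes was 0.27, and 10 of them had all iSM KO libraries above all controls, where 15.0% of all tested genes did.

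Of 19 other basement membrane genes and laminin receptors, 5 rose and 2 fell. Ntn4, a netrin that binds laminin γ chains, rose by a log2 fold change of 1.04 (SE 0.111, edgeR FDR = 0.000934). The collagen IV chain gene Col4a6 rose by 0.76 (SE 0.095, edgeR FDR = 0.00201) and Col4a2 by 0.63 (SE 0.119, edgeR FDR = 0.0139), and Col4a1, named after its values were seen, by 0.50 (SE 0.116, edgeR FDR = 0.0353). Of the syndecans, cell surface proteoglycans, Sdc3 rose by 1.33 (SE 0.179, edgeR FDR = 0.00278), whereas Sdc1 had a log2 fold change of -1.12 (SE 0.139, edgeR FDR = 0.00195). Col18a1, a basement membrane collagen, went from 2073 ± 222 to 1444 ± 27.0 CPM (SD, n = 3 each; log2 fold change -0.52, edgeR FDR = 0.0212). Ntn4, Col4a6, Sdc3 and Sdc1 kept an FDR under 0.05 whichever library was left out. Col4a2 did not without iSM KO 1 or iSM KO 2 (up to 0.0808), Col18a1 did not without any 1 of the iSM KO libraries (up to 0.114), and Col4a1 did not without control 1, control 3, iSM KO 1 or iSM KO 2 (up to 0.157).

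In the focal adhesion plaque, 3 of 30 tested genes rose, 1 fell and the median log2 fold change was 0.14. Svil (supervillin) and Lpp, both actin-linked plaque proteins, rose by 0.57 (SE 0.099, edgeR FDR = 0.00929) and 0.45 (SE 0.108, edgeR FDR = 0.0393). Svil did not pass without iSM KO 1 or iSM KO 2 (FDR up to 0.064), and Lpp passed only without control 2 among the fits that left out 1 library (up to 0.168). Fblim1, whose protein migfilin binds filamin and kindlin, went from 1146 ± 184 to 633 ± 13.6 CPM (SD, n = 3 each; log2 fold change -0.86, edgeR FDR = 0.00356). Of 12 tested integrin ligands outside the basement membrane, none rose and 1 fell, with a median of -0.35. The gene that fell was Col3a1, a fibrillar collagen chain, from 1084 ± 61.3 to 497 ± 41.1 CPM (SD, n = 3 each; log2 fold change -1.13, edgeR FDR = 0.000329). Fibronectin, Fn1, the ligand of the Itga5 receptor, was at 3516 to 5806 CPM in the controls and 3289 to 3962 CPM in the iSM KO libraries (-0.35, SE 0.181, edgeR FDR = 0.302). Of 5 tested further integrin α chains, Itgav included, none passed.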

How the data were processed

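Aortic RNA of 3 control and 3 iSM KO mice was depleted of ribosomal RNA and sequenced as 150-bp paired reads. The authors mapped the reads with DRAGEN to Ensembl release 101 (mm10) and deposited estimated counts per gene, with no rounding or scaling; 10.9% to 12.2% of the values were not whole. The strand setting and the treatment of reads that match several genes are not given in the sources used here.

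After rounding, a gene was tested if every library of 1 or both groups held more than 10 counts of it. The quasi-likelihood test (edgeR 4.0.16, R 4.3.3) used TMM factors and all 6 libraries without a covariate, with Benjamini-Hochberg adjustment over 16565 genes, and was tested on simulated data. Alternatives were DESeq2 1.42.0, limma-voom (limma 3.58.1), other scalings and filters, unrounded counts, a replicate block, a test against a fold change of 2, and each library left out. Exon lengths and positions came from GENCODE M21 (GRCm38), near-identical copies from blastn 2.17.0 (95% identity over 100 bp) and promoter windows from RefSeq.

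Members, gene and marker lists and pairs for ratios were chosen with earlier results of these data known. Values by library are given for each member past an FDR of 0.05, the most abundant of each class and, in classes with none past it, that with the smallest p, and others were added; at most 6 genes are named from a further list, by smallest p. Sequences are shown for the gene with the smallest p, and Lama2 and Itga5 were added; the window of Itgb8 overlaps an annotated exon. Some members and list genes are counted but not reported here by name.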

Additional observations from a re-analysis of the deposited data

How the results depend on the processing

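The 11 calls were taken from 1 fit, and 15 alternatives were run. No called member changed sign in any of them, and 33 of the 42 tested members kept 1 sign throughout. DESeq2 called 12 members higher and 3 lower, and 5.69% and 4.64% of all tested genes, beside 4.26% and 3.30% in the main fit. Limma-voom called 10 and 1 (4.29% and 3.22% of all tested genes). Scaling on protein-coding genes called 10 and 2 (4.44% and 3.22%), as did no filter on low counts (2.98% and 2.81%). The numbers of the replicates did not pair the libraries (correlations of -0.132, -0.046 and -0.107 between the deviations of same-numbered libraries). A replicate block called 5 members higher and 1 lower (2.76% and 1.92% of all tested genes). Tested against a fold change of 2, the members called higher, lower and past that fold numbered 0, 0 and 0 (64 and 31 of all genes). Over the 6 fits without 1 library, the members called higher numbered 4 to 12, those called lower 0 to 2 and those past a fold of 2 numbered 0 to 3. There were 4 higher without iSM KO 1 or iSM KO 2, where 2.29% and 1.85% of all tested genes rose, and 12 without control 2, where 4.58% did. There were 0 lower without control 1, control 3, iSM KO 1 or iSM KO 2, where 2.51%, 2.23%, 1.44% and 1.2% of all tested genes fell. No member passed the fold of 2 without control 1, control 3 or iSM KO 1, and 3 did without control 2 or iSM KO 3. Of the genes in the 5 further lists, a result to which the same alternatives were applied after seeing the data, 11 rose and 4 fell. DESeq2 called 16 and 8, no filter 14 and 9, and the test against a fold change of 2 called 1 and 0. Without 1 library they numbered 6 to 15 and 3 to 5, with 6 higher without iSM KO 1 or iSM KO 2. The causes of these differences were not tested. The log2 fold change of Itga10 turned to 0.0118 in limma-voom and to 0.00212 under the replicate block. Without 1 library the log2 fold change ranged from -0.199 to 0.149 for Itga10, -0.169 to 0.112 for Itgb3, -0.0628 to 0.018 for Lama4, -0.0201 to 0.0456 for Sgce, -0.0253 to 0.144 for Dag1, -0.0321 to 0.0922 for Ilk, -0.063 to 0.139 for Nid1 and -0.00034 to 0.115 for Sgcb, none of which passed with all libraries. Control 3 had the fewest counts, and the low members Itgb2, Fermt3 and Itga2 had standard errors of 0.32 to 0.423.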
